A study of Rattus norvegicus with 78 samples.

Results

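The proteasome genes were taken as the genes whose symbol in the array annotation starts with Psma, Psmb, Psmc, Psmd, Psme, Psmf or Psmg, leaving out the interferon-inducible subunits Psmb8 and Psmb9. Of 66 probesets with such a symbol, 2 were those of Psmb8 and Psmb9, and 6 carried several gene symbols and were not used, so that Psmb6 and Psme3 had no value. The 58 probesets left belonged to 44 genes, out of 14218 genes with a probeset of a single symbol. Each gene was read from the probeset with its highest mean intensity over the 78 arrays, and a mean above 30 was required. All 44 genes met it, with means between 70.3 for Psmc3ip and 1295 for Psmb4 and a median of 412. The brightest probeset of these genes that lay at or under 30 was a second probeset of Psmc4, with a mean of 22.1.

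The proteasome degrades proteins that carry ubiquitin chains. Its barrel-shaped 20S core is built from outer rings of alpha subunits (Psma genes), which gate the entrance, and inner rings of beta subunits (Psmb genes), some of which cut peptide bonds. The 19S cap docks on the core with a base, whose ring of ATPases (Psmc genes) unfolds the substrate, and a lid, which removes the ubiquitin chain. In neurons, protein breakdown by the proteasome takes part in the turnover of synaptic proteins. Of the 44 genes, 14 encode core subunits (7 alpha, 6 constitutive beta and the inducible beta subunit Psmb10) and 17 encode cap subunits (6 ATPases, the 3 other base subunits Psmd1, Psmd2 and Psmd4, and 8 lid subunits). The other 13 belong to neither: 4 core assembly chaperones (Psmg1 to Psmg4), 3 cap assembly chaperones (Psmd5, Psmd9 and Psmd10), 3 activators (Psme1, Psme2 and Psme4), the inhibitor Psmf1, and Psmc3ip and Psme3ip1, which have such symbols but are not proteasome subunits.

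RNA was measured in the hippocampus (HIP) and the whole frontal lobe, called prefrontal/frontal cortex (P/FC), of the right hemisphere of rats. Flinders Sensitive Line (FSL) rats, a line obtained by selective breeding from Sprague-Dawley rats and studied as a model of depression, were set against the counter-selected Flinders Resistant Line (FRL). There were 9 FSL and 12 FRL arrays of each region in cohort 1, and 8 FSL and 10 FRL arrays of each region in cohort 2, which was made up 6 months later. All rats were adult males, and both lines had gone through a forced swim test and a recovery period before the tissue was taken. The lines differ by their whole breeding history and not by a single allele, so that a difference between FSL and FRL belongs to the line as a whole.

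All values were normalised intensities, and a line difference below is a mean log2 intensity in FSL minus that in FRL, averaged over the 2 cohorts with equal weight, with its standard error. A gene was called when its limma p, adjusted by Benjamini-Hochberg over all probesets kept in the region, was under 0.05. The median intensity of an array lay between 60.8 and 66.0 in P/FC and between 56.8 and 63.0 in HIP. The hippocampal markers Prox1 and Nr3c2 summed to 195 to 309 in P/FC and to 678 to 985 in HIP, and the cortical marker Tbr1 reached 32.0 to 114 in P/FC and 11.7 to 46.9 in HIP. Markers of neighbouring tissue varied widely between arrays: the striatal markers (Drd1, Drd2, Penk and Adora2a) summed to 411 to 3198 over the P/FC arrays, and the choroid plexus markers (Ttr, Kl and Folr1) to 127 to 13622 over the HIP arrays.

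In P/FC, proteasome genes were higher in FSL than in FRL across most of the core and part of the cap. Of the 44 genes, 23 were called, 22 of them higher and 1, Psmb10, lower in FSL, while 18.6% of all 22370 probesets kept in P/FC were called (9.76% higher and 8.86% lower in FSL). The core carried 12 of the higher genes and the cap 6. The changes were small: the largest was 0.28 ± 0.06 (SE) for Psmb5, and the median over the 44 genes was 0.10, against 0.0019 over all kept probesets. The median standard error was 0.039 over the 44 genes and 0.066 over all kept probesets, so that a small difference was more easily called in these genes. With the 3′ to 5′ ratio of the Gapdh control probesets as a covariate, 6 of the 44 genes were called, Psma3, Psma5, Psmb1, Psmb2, Psmc1 and Psmd14, all of them higher in FSL. The shares of all kept probesets above are those of the fit without this covariate. The drop from 23 to 6 is therefore not shown to be particular to these genes.

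The constitutive catalytic beta subunits with a value were both higher in FSL. Psmb5 (probeset 1371348_at), which carries the chymotrypsin-like activity, had intensities of 947, 1089.7 and 1289 (lowest, median and highest) in the 17 FSL P/FC arrays, against 733, 915 and 1199 in the 22 FRL P/FC arrays. The lines overlapped, with all 17 FSL arrays above the FRL median and 14 of the 22 FRL arrays below every FSL array. The line difference of 0.28 had an adjusted p of 0.00114 in limma. It was not called when all Psmb5 probesets were averaged (a line difference of 0.065) or with the Gapdh ratio (a line difference of 0.21). The average also took in a Psmb5 probeset that did not pass the intensity filter, with a mean of 18.8. Psmb7, which carries the trypsin-like activity, had 1249.5, 1292.5 and 1370.2 in FSL and 1038, 1178 and 1339 in FRL. All FSL arrays lay above 17 of the 22 FRL arrays, and the difference was 0.14 ± 0.03 (limma adjusted p = 0.00120).

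The other 4 constitutive beta subunits, which have no cutting site of their own, were also called higher in FSL. Psmb2 (1398786_at) had 565, 663 and 713 in FSL P/FC and 469, 554 and 666 in FRL P/FC. Its 17 FSL arrays all exceeded the FRL median, and 7 exceeded the highest FRL array. The difference was 0.22 ± 0.04 (limma adjusted p = 0.000229). Psmb1 had 942, 1058 and 1116 in FSL and 823, 947 and 1045 in FRL, a difference of 0.14 ± 0.02 (limma adjusted p = 0.000187), and 9 of its FSL arrays exceeded every FRL array. Psmb3 and Psmb4 differed by 0.17 ± 0.04 and 0.11 ± 0.03.

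Psmb10 (1374033_at), the interferon-inducible counterpart of Psmb7 in the immunoproteasome, was the only core gene called lower. It had 132, 145 and 179.5 in FSL P/FC and 134, 167 and 198 in FRL P/FC. The ranges overlapped, and 2 of the 17 FSL arrays exceeded the FRL median. The difference was -0.16 ± 0.05 (limma adjusted p = 0.0187), and it was not called with the Gapdh ratio or with the striatal marker score as a covariate. The immunoproteasome subunits outside the 44 genes, Psmb8 and Psmb9, had differences of -0.29 ± 0.11 (limma adjusted p = 0.0646) and -0.047 ± 0.098 (0.791) in P/FC and were not called.

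Of the 7 alpha subunits, 6 were called higher in FSL P/FC. Psma5 (1387884_at) separated the lines most clearly: it had 854, 917 and 965 in FSL and 684, 792 and 911 in FRL. All 17 FSL arrays lay above 17 of the 22 FRL arrays, and 9 lay above all of them. The difference was 0.19 ± 0.03 (limma adjusted p = 9.87e-05). Psma3 had 173, 210.3 and 252 in FSL and 156, 184 and 221 in FRL, a difference of 0.19 ± 0.04 (limma adjusted p = 0.00110). Psma2, Psma4, Psma6 and Psma7 had differences of 0.086 to 0.15. The alpha subunit that was not called, Psma1 (1398778_at), had 402, 477 and 510.0 in FSL and 432, 488 and 601 in FRL, with 6 FSL arrays above the FRL median, and its difference was -0.079 ± 0.041 (limma adjusted p = 0.178).

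**Figure D1:**
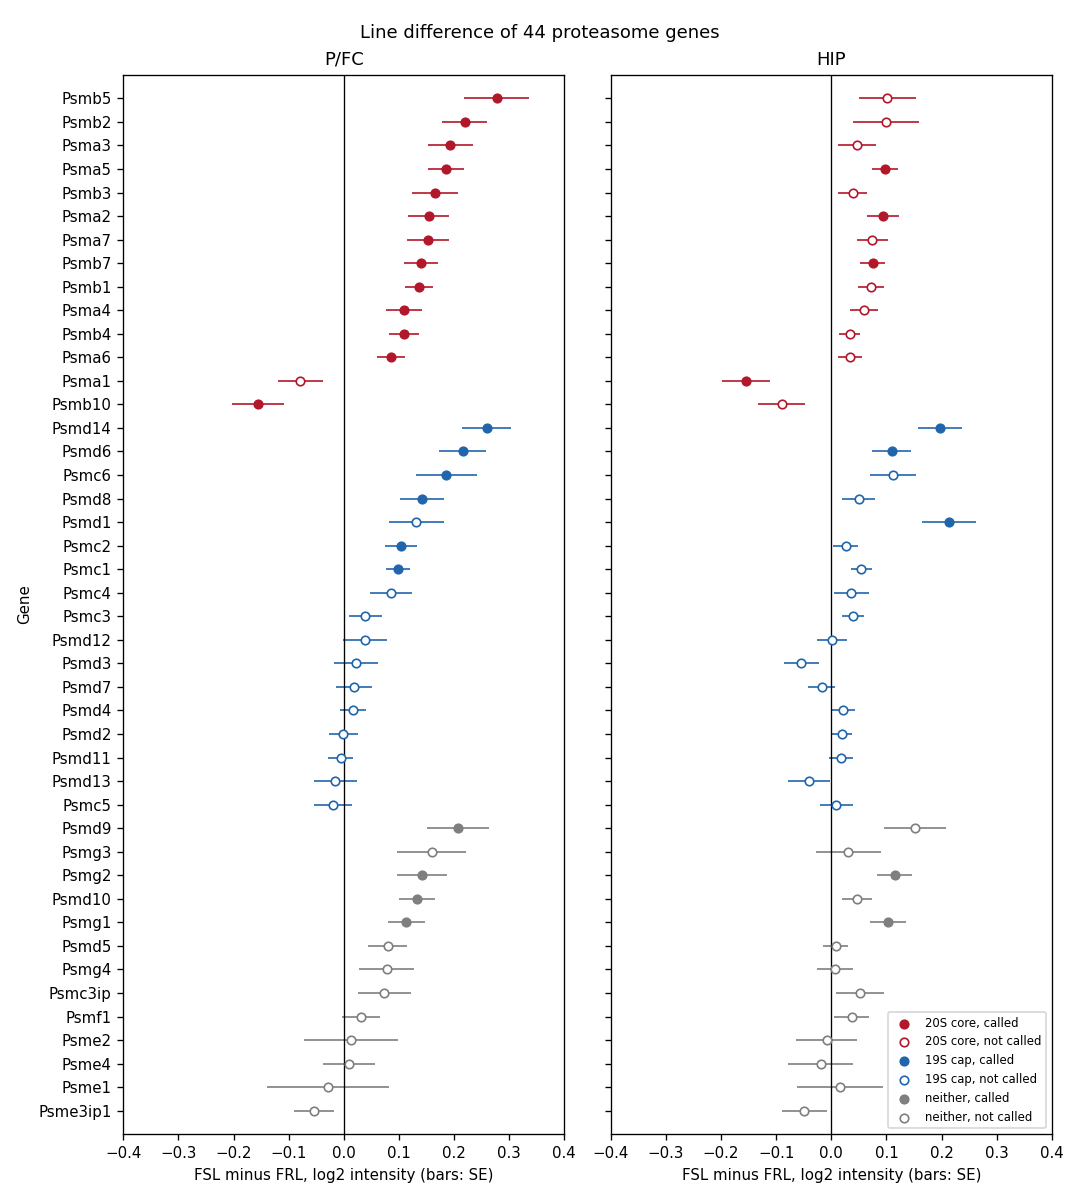
Line difference (FSL minus FRL, log2 intensity, mean of the 2 cohorts) of the 44 genes in P/FC (left) and HIP (right), grouped into 20S core, 19S cap and neither and sorted by the P/FC value. Points are limma estimates, bars are standard errors and filled points are called. In P/FC 13 of 14 core genes and 6 of 17 cap genes are filled, and in HIP 4 of 14 and 3 of 17.

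The cap was less uniform. In P/FC 6 of its 17 genes were called higher, none lower, and 11 were not called, with a median difference of 0.039. Psmd14 (1394082_at), the lid metalloprotease that removes the ubiquitin chain, had 376, 412 and 449 in FSL and 278, 344 and 425 in FRL. All FSL arrays lay above 17 of the 22 FRL arrays, and the difference of 0.26 ± 0.04 had the smallest adjusted p of the 44 genes (limma, 8.69e-05). The lid subunit Psmd6 (1371851_at) had 942, 1025 and 1114 in FSL and 712, 878 and 1078 in FRL, with 18 of 22 FRL arrays below every FSL array, and differed by 0.22 ± 0.04 (limma adjusted p = 0.000481). The lid subunit Psmd8 differed by 0.14 ± 0.04.

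Among the 6 ATPases, Psmc1, Psmc2 and Psmc6 were called higher. Psmc1 had 633, 662 and 715 in FSL P/FC and 581, 624 and 662 in FRL P/FC, with 16 of 22 FRL arrays below every FSL array and 8 FSL arrays above every FRL array. Its difference was 0.098 ± 0.021 (limma adjusted p = 0.00136). Psmc2 differed by 0.10 ± 0.03 and Psmc6 by 0.19 ± 0.05. The other 2 Psmc6 probesets had -0.0017 and -0.079, and the average over all 3, 0.035, was not called. Psmc3, Psmc4 and Psmc5 were not called, with values between -0.020 and 0.086. None of the other 3 base subunits was called in P/FC: Psmd1, the large scaffold of the base, had a difference of 0.13 ± 0.05 (limma adjusted p = 0.0600), the ubiquitin receptor Psmd4 one of 0.018 ± 0.024, and Psmd2, which docks shuttle proteins, one of -0.00076 ± 0.027. The 5 lid genes that were not called (Psmd3, Psmd7, Psmd11, Psmd12 and Psmd13) had values between -0.015 and 0.039.

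**Figure D2:**
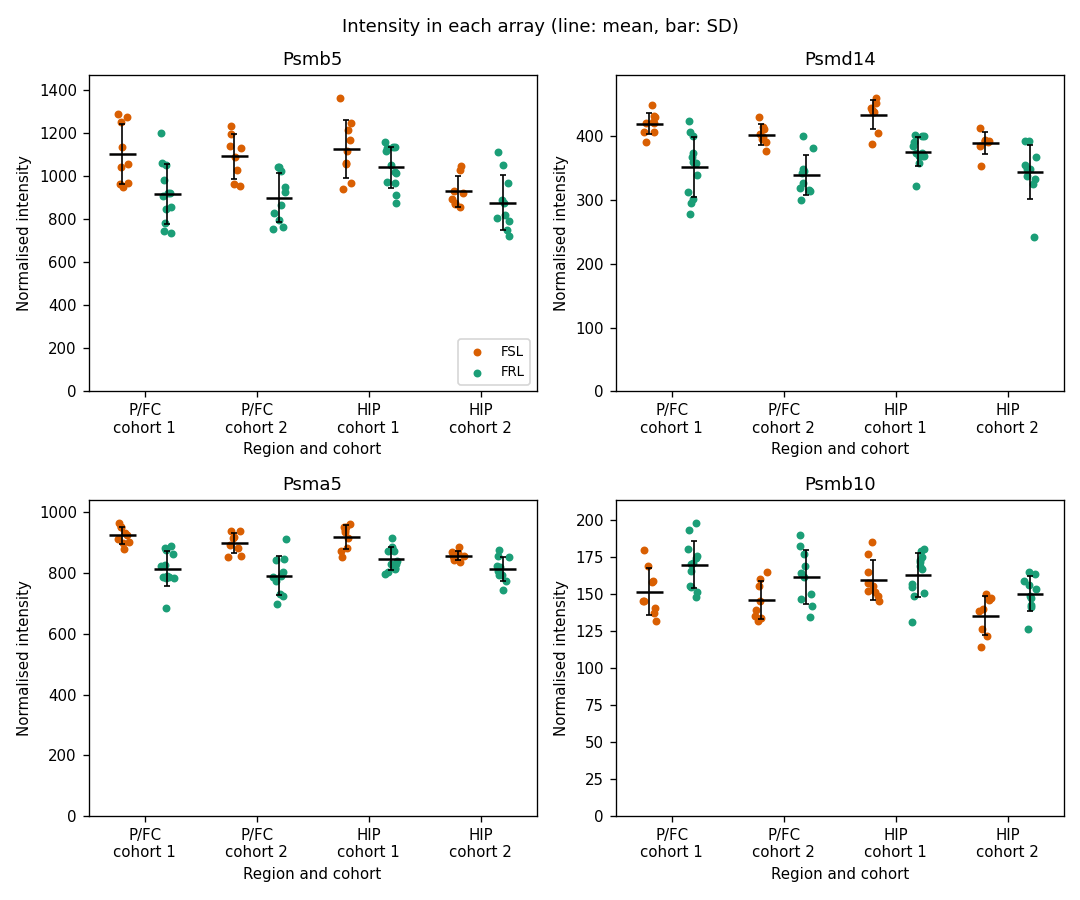
Normalised intensity of Psmb5, Psmd14, Psma5 and Psmb10 in each of the 78 arrays, by region and cohort, with FSL left of FRL. Each point is an array, the long line is the group mean and the bar is the SD. In P/FC the FSL arrays of Psma5 run from 854 to 965 and the FRL arrays from 684 to 911, and those of Psmd14 from 376 to 449 in FSL and from 278 to 425 in FRL.

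Of the 13 genes in neither class, 4 were called higher in FSL P/FC, all of them assembly chaperones. Psmd9 and Psmd10, which help build the base, differed by 0.21 ± 0.06 (limma adjusted p = 0.00894) and 0.13 ± 0.03 (0.00419). A dimmer Psmd9 probeset had -0.12 ± 0.06 in P/FC, and Psmd9 was not called when its probesets were averaged. Psmg1 and Psmg2, partners in a dimer that starts the alpha ring, differed by 0.11 ± 0.03 (0.0149) and 0.14 ± 0.05 (0.0258). Psmg3 and Psmg4, the other alpha ring chaperone pair, had 0.16 ± 0.06 (0.0700) and 0.078 ± 0.050 (0.298), and the base chaperone Psmd5 had 0.080 ± 0.036 (0.114). The activators Psme1, Psme2 and Psme4 had values between -0.029 and 0.014, and the inhibitor Psmf1 one of 0.031 ± 0.035.

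The 250 bases before the annotated start were taken for the promoters of 40 of the 44 genes (RefSeq, build GRCr8); Psma7, Psmd6, Psmd12 and Psmd14 were not matched. They are shown for the 4 genes with the largest called difference in P/FC among those matched and for Psmb10, the gene called lower, to set the sequence beside the values above. Capitals mark matches, on either strand, to the core of the antioxidant response element (TGACNNNGC, bound by factors of the Nrf family) and to the CCAAT box (CCAAT). In Psmb2 a CCAAT box and an antioxidant response element core overlap. Psmb5 and Psmd9 were not called in P/FC when the probesets of each gene were averaged, the Psmb5 average including a probeset that did not pass the filter.
Psmb5 (chr15:32047380-32047629, minus strand): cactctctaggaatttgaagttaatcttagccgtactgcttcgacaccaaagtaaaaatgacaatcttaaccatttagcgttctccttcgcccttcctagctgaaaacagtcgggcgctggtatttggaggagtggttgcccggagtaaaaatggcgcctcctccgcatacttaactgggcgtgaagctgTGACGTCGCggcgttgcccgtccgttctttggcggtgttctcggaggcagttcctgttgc
Psmb2 (chr5:144254808-144255057, plus strand): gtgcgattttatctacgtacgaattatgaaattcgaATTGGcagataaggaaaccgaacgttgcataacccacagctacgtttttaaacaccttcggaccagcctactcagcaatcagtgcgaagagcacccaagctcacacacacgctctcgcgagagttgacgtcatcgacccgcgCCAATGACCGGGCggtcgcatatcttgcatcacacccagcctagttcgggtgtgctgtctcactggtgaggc
Psmd9 (chr12:39018265-39018514, minus strand): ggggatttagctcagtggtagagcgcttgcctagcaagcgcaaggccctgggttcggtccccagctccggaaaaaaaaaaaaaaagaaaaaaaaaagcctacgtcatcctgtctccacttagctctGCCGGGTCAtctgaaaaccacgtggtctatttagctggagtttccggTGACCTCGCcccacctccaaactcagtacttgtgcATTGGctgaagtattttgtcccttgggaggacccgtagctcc
Psma3 (chr6:95219499-95219748, plus strand): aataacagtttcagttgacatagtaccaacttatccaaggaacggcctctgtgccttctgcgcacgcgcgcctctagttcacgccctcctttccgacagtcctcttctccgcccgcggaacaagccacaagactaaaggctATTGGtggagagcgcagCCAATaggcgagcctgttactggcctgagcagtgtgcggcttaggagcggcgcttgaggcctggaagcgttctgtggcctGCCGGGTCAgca
Psmb10 (chr19:50743293-50743542, minus strand): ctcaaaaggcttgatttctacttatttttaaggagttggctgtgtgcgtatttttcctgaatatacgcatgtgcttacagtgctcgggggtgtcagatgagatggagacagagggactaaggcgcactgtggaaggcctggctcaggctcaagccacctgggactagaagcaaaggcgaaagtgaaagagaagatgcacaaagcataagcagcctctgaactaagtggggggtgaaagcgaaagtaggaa

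Psmb5 held the response element core 60 bases before the start, Psmb2 68 bases, Psma3 12 bases, and Psmd9 at 124 and 77 bases, while neither motif was found in the Psmb10 window. Over the 40 genes, 6 (15%) held the core, Psma3, Psmb2, Psmb5, Psmd1, Psmd9 and Psme4, against 10.1% of all 33469 promoters of the table. The CCAAT box was found in 20 of the 40 genes (50%), in 9 of 13 core genes (69.2%) and in 5 of 14 cap genes (35.7%), against 34.0% of all promoters. Among the 20 matched genes called in P/FC, 4 held the response element core and 11 the CCAAT box, against 2 and 9 of the 20 matched genes not called. A match is a description of the letters in this window and not a site of binding.

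In HIP fewer of the genes were called and the differences were smaller. Of the 44 genes, 9 were called, 8 higher and 1 lower in FSL, while 7.33% of the 21630 probesets kept in HIP were called (3.2% higher and 4.13% lower). The median over the 44 genes was 0.038, against -0.0016 over all kept probesets. The higher genes were Psma2, Psma5 and Psmb7 of the core, Psmd1, Psmd6 and Psmd14 of the cap, and the chaperones Psmg1 and Psmg2, and the lower gene was Psma1. When the fit held the 3′ to 5′ ratio of Actb, only Psma1 was called, and when it held that of Gapdh, Psma1, Psma5, Psmd1 and Psmd14 were called. The shares of all kept HIP probesets above are those of the fit without these ratios. Without FRL replicate 2 of HIP cohort 2, which had the highest Actb ratio in HIP, 6 genes were called, 5 of them among the 9, and Psma2, Psmb7, Psmd6 and Psmg1 were not.

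Psmd1 (1369992_at), the base scaffold, had the largest HIP difference. It had 190.2, 244 and 326 in the 17 FSL HIP arrays and 157, 206 and 239.8 in the 22 FRL HIP arrays, and 9 FSL arrays lay above every FRL array. The difference was 0.21 ± 0.05 (limma adjusted p = 0.00369). Psmd14 had 353, 406 and 459.9 in FSL HIP and 242, 369 and 402 in FRL HIP, with 9 FSL arrays above every FRL array. Its difference was 0.20 ± 0.04 (limma adjusted p = 0.00101), and it was not called when its probesets were averaged (a line difference of 0.10). Psma5 had 838, 872 and 961 in FSL HIP and 745, 826 and 916 in FRL HIP. Its 17 FSL arrays all lay above the FRL median, and the difference was 0.097 ± 0.023 (limma adjusted p = 0.00510).

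Psma1 ran the other way in HIP. It had 339.6, 392 and 439 in FSL and 358, 441 and 546 in FRL, so that none of the 17 FSL arrays reached the FRL median, and its difference was -0.15 ± 0.04 (limma adjusted p = 0.0233). Psmb5 and Psmb2, the core genes with the largest P/FC differences, had 0.10 ± 0.05 (limma adjusted p = 0.258) and 0.099 ± 0.060 (0.357) in HIP and were not called. Psmb10 had -0.090 ± 0.042 (0.207). The 6 ATPases had values between 0.0091 and 0.11 in HIP, none of them called, and the highest, that of Psmc6, was -0.070 when its 3 probesets were averaged.

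The 2 cohorts were also read apart, since the study's methods asked for an unadjusted p under 0.05 in each. By that rule, with the same sign in both cohorts, 19 of the 44 genes passed in P/FC, 18 higher and 1 lower in FSL, against 9.87% of all kept probesets (5.16% higher and 4.7% lower). They were 12 of the 14 core genes, all but Psma1 and Psma6, among the 17 cap genes Psmc1, Psmc6, Psmd6, Psmd8 and Psmd14, and the cap assembly chaperones Psmd9 and Psmd10. In HIP 5 of the 44 genes passed (Psma5, Psmb7, Psmd1 and Psmd14 higher, Psma1 lower), against 4.85% (2.14% higher and 2.71% lower). The P/FC count was 8 with the Gapdh ratio and 12 with the striatal marker score in the fit, and the HIP count was 1 with the Actb ratio. The shares just given are those of the fits without these covariates. Taken alone, cohort 1 of P/FC had 25 genes higher and 1 lower at unadjusted p (23.1% of all kept probesets, 11.5% higher and 11.6% lower), and cohort 2 had 20 higher and 1 lower (19.8%, 10.5% higher and 9.32% lower). In HIP, cohort 1 had 17 higher and 1 lower (14.5%, 6.45% higher and 8.04% lower), and cohort 2 had 6 higher and 2 lower (13.8%, 6.33% higher and 7.45% lower). Psmb5 differed by 0.27 in cohort 1 and 0.29 in cohort 2 of P/FC, Psma5 by 0.18 and 0.19, Psmd14 by 0.27 and 0.25, and Psmb10 by -0.16 and -0.15. No gene had a line difference that itself differed between the cohorts at adjusted p in limma (0 of 44 in each region, background 0.0%), and at unadjusted p under 0.05 there was 1 in P/FC (4.63% of all kept probesets) and 3 in HIP (4.33%). The gene in P/FC was the activator subunit Psme2, with 0.24 in cohort 1 and -0.21 in cohort 2, and those in HIP were Psmb3, Psmc4 and Psmg4, all with the larger value in cohort 1.

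**Figure D3:**
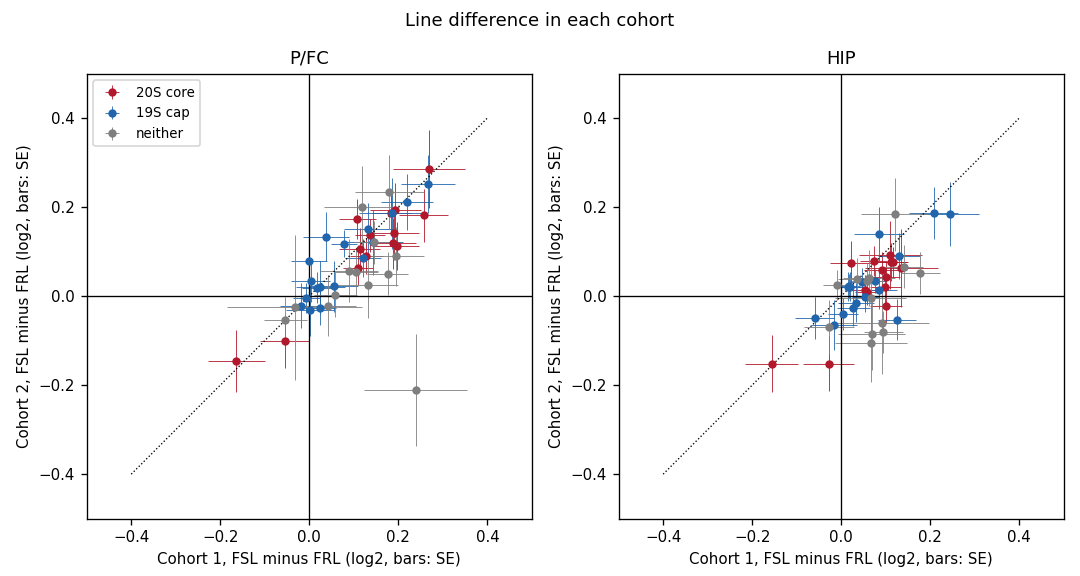
Line difference (FSL minus FRL, log2 intensity) of the 44 genes in cohort 1 (x axis) and cohort 2 (y axis), for P/FC (left) and HIP (right). Points are genes coloured by class, bars are limma standard errors and the dotted line marks equal differences. In P/FC 12 of 14 core genes are positive in both cohorts, Psmb10 and Psma1 are negative in both, and the point at the lower right is Psme2.

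Core and cap were set side by side by their counts and medians, without a test. In P/FC the core had 12 genes called higher, 1 lower and 1 not called and a median of 0.15, and the cap had 6 called higher, 0 lower and 11 not called and a median of 0.039. With the Gapdh ratio in the fit, 4 core and 2 cap genes were called, and the difference between the medians was 0.025, against 0.11 without it. The order was the same in cohort 1 (medians 0.16 and 0.038) and in cohort 2 (0.13 and 0.079). In HIP the core had 3 called higher, 1 lower and 10 not called and a median of 0.066, and the cap 3, 0 and 14 and a median of 0.026. Taken per array, the mean log2 intensity of the 14 core genes minus that of the 17 cap genes averaged 0.35 in the 17 FSL arrays of P/FC with an SD of 0.04, against 0.30 in the 22 FRL arrays with an SD of 0.05. In HIP it averaged 0.40 over FSL arrays and 0.41 over FRL arrays, each with an SD of 0.05, so that there the means and the medians differ in the sign of core against cap. Probesets differ in their binding strength, so that only the difference between the lines in this quantity can be read, not its level.

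**Figure D4:**
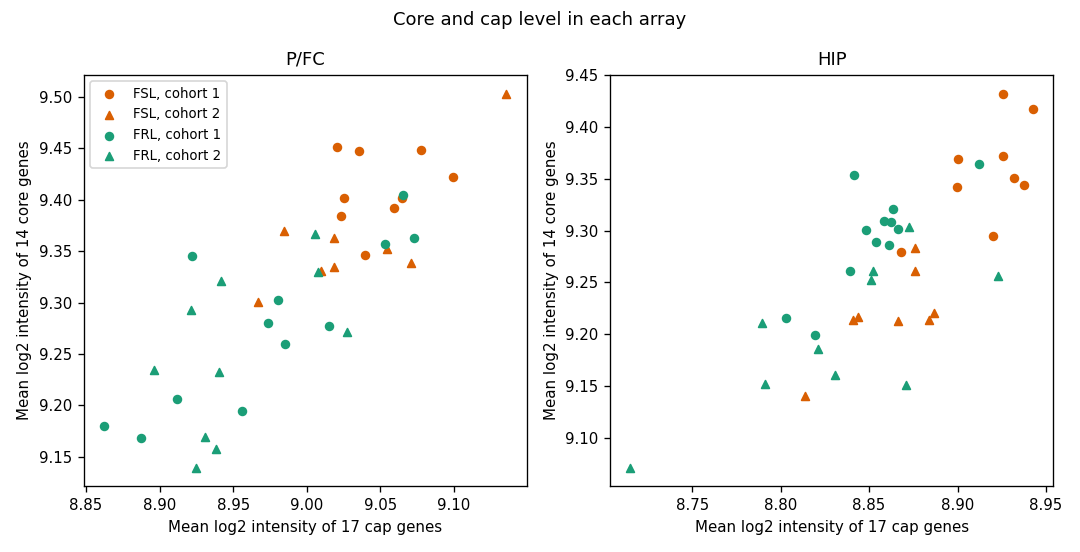
Mean log2 intensity of the 14 core genes (y axis) against that of the 17 cap genes (x axis) in each array, for P/FC (left) and HIP (right). Each point is an array, coloured by line and shaped by cohort. In P/FC the core mean spans 9.30 to 9.50 in FSL and 9.14 to 9.40 in FRL.

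The core genes also varied together from array to array. After subtracting each group's mean, the mean Pearson correlation between pairs of core genes over the 39 arrays was 0.397 in P/FC and 0.275 in HIP. It was 0.179 and 0.087 between pairs of cap genes, 0.208 and 0.137 between a core and a cap gene, and 0.007 and 0.011 between pairs of all kept probesets. The pairs of all kept probesets were not matched to the core genes in brightness. Psma2 had the highest mean correlation with the other core genes in P/FC (0.545), and Psmb10 had the lowest (-0.127). These correlations describe arrays that share their RNA quality and labelling within each point, and no test was made of them.

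The P/FC and HIP calls shared 7 genes, Psma2, Psma5, Psmb7, Psmd6, Psmd14, Psmg1 and Psmg2, which were 30.4% of those called in P/FC and 77.8% of those called in HIP. Over all 20963 probesets kept in both regions the shares were 28.3% and 73.3%, close to those of the proteasome genes. A test of the difference itself did not separate the regions. In none of the 44 genes did the line difference in P/FC differ from that in HIP at adjusted p in limma (background 0.0668%, 0.0286% higher and 0.0382% lower in P/FC), and 8 passed at unadjusted p (7.94% of all probesets). The smallest p was that of Psma3, with a P/FC minus HIP difference of 0.15 ± 0.05 (limma adjusted p = 0.428). The larger count in P/FC is therefore not shown to be particular to that region. Arrays of the same rat could not be matched between the regions and were treated as independent.

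The level of the genes was next compared between the regions over all 78 arrays. Per the study's methods the samples of each region were handled apart from those of the other, so that a difference between regions and one of processing cannot be told apart. The median of all probesets was itself 0.085 higher in P/FC than in HIP on the log2 scale. Of the 44 genes, 29 differed (22 higher and 7 lower in P/FC), against 69.6% of all probesets kept in both regions (48.5% higher and 21.1% lower), so that the count over the genes was no larger than the background. The classes differed in their counts: 13 of 17 cap genes were higher in P/FC and none lower, with a median of 0.12, while 5 of 14 core genes were higher and 1, Psmb3, lower, with a median of 0.037. Psmd1 had the largest difference, with intensities of 323 ± 35.5 in P/FC and 224 ± 32.2 in HIP (SD, n = 39 each) and a difference of 0.53 ± 0.03 (limma adjusted p = 2.07e-23). The 3 cap assembly chaperones were all lower in P/FC, Psmd10 by most, with 242 ± 20.6 in P/FC and 311 ± 18.2 in HIP and a difference of -0.36 ± 0.02 (limma adjusted p = 8.88e-27). The paired activator subunits Psme1 and Psme2 were also lower in P/FC, by -0.18 ± 0.07 and -0.21 ± 0.05, and the alpha ring chaperone Psmg3 was higher, by 0.36 ± 0.04.

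**Figure D5:**
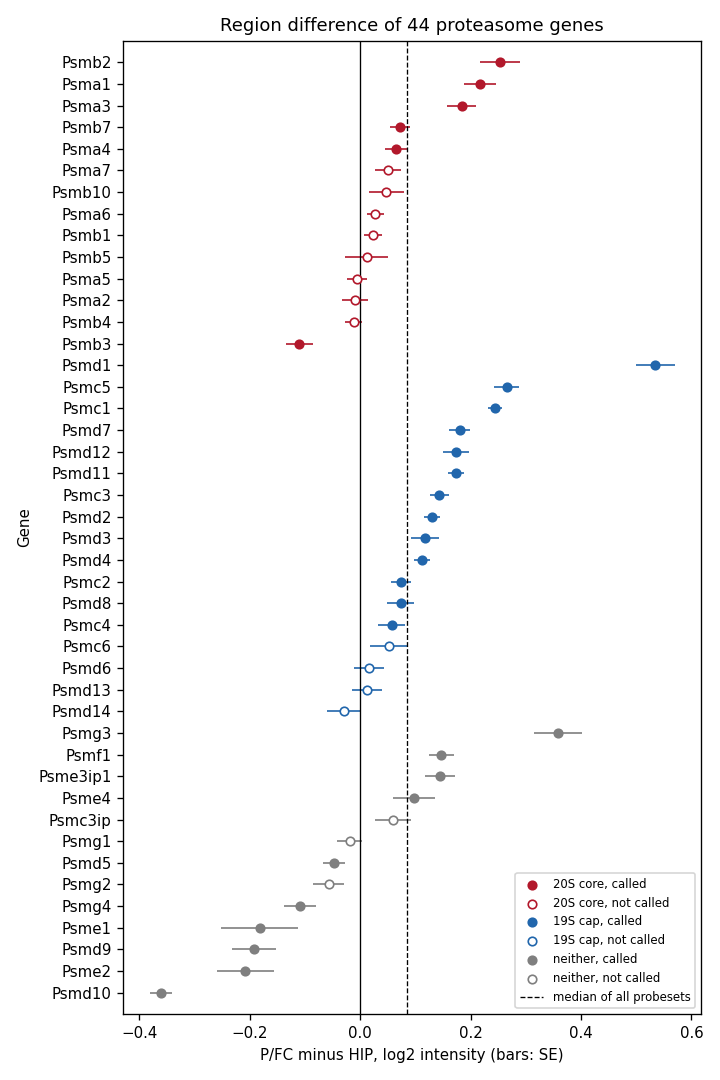
Region difference (P/FC minus HIP, log2 intensity over both lines and cohorts) of the 44 genes, by class. Points are limma estimates, bars are standard errors, filled points are called, and the dashed line is the median of all probesets (0.085). Cap genes lie between -0.030 and 0.53 and core genes between -0.11 and 0.25.

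For 9 of the genes the array holds further probesets, 14 in all, which are not counted above. Those of Psmd14 were higher in FSL P/FC as well, with 0.25 ± 0.07 (limma adjusted p = 0.0118) and 0.21 ± 0.07 (0.0461), while in HIP they had 0.12 ± 0.07 (0.300) and -0.012 ± 0.065 (0.944). A dimmer probeset of the lid subunit Psmd7 was called in P/FC at 0.16 ± 0.05 (0.0304), where the brightest one had 0.018 ± 0.032. The further Psmb5 probeset that passed the filter, with a mean intensity of 37.3, had 0.091 ± 0.12 (0.635) in P/FC. The probesets of Psmd9 disagreed: the dimmer one, with a mean of 64.6, was called lower in HIP at -0.22 ± 0.06 (0.0129) and had -0.12 ± 0.06 (0.169) in P/FC, so that the direction of Psmd9 depends on the probeset, and the average, 0.044 in P/FC, was not called. Those of Psmc6 disagreed as well: the further ones, with means of 176 and 52.8, had -0.0017 ± 0.056 and -0.079 ± 0.098 in P/FC and -0.12 ± 0.05 and -0.20 ± 0.12 in HIP, none of them called, so that the direction of Psmc6 also depends on the probeset. The study names sequence polymorphisms as a possible source of some differences in hybridisation, which was not tested here.

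Genes that feed or regulate the proteasome were read from a list of 59 symbols, some of them another name of a gene also listed. Of these symbols, 47 had a probeset of a single symbol and passed the filter. In P/FC 14 of the 47 were called higher, 3 lower and 30 were not called, and in HIP 5 were called higher, 3 lower and 39 were not. Over all kept probesets the shares were 9.76% higher and 8.86% lower in P/FC, and 3.2% higher and 4.13% lower in HIP. Akirin2, which takes part in the nuclear import of proteasomes, had 212, 256 and 313 in FSL P/FC and 169, 226 and 272 in FRL P/FC, a difference of 0.25 ± 0.06 (limma adjusted p = 0.00195), and 0.26 ± 0.04 in HIP (3.70e-06). Uchl3, a deubiquitinase of small ubiquitin adducts, differed by 0.25 ± 0.03 in P/FC (3.12e-06) and by 0.15 ± 0.03 in HIP (0.000908). Usp14, a deubiquitinase that binds the cap, differed by 0.15 ± 0.03 and 0.070 ± 0.021, and Uchl5, another cap-bound deubiquitinase, by 0.18 ± 0.06 in P/FC. The core maturation factor Pomp and the small cap subunit Sem1, outside the 44 genes by their symbols, were called higher in P/FC at 0.095 ± 0.026 and 0.10 ± 0.03. The ligase genes Nedd4 and Skp1 differed by 0.15 ± 0.04 and 0.15 ± 0.04 in P/FC. Called lower in both regions were Ecpas, a proteasome-binding scaffold (-0.11 ± 0.03 in P/FC and -0.073 ± 0.023 in HIP), and Nfe2l2, an Nrf transcription factor (-0.17 ± 0.06 and -0.14 ± 0.04). The related Nfe2l1, on the same list, was not called in either region (0.034 ± 0.035 in P/FC and 0.015 ± 0.028 in HIP).

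Some cell type markers and RNA measures moved with the line. All 4 astrocyte markers (Gfap, Aqp4, Slc1a3 and Aldh1l1) were called lower in FSL in both regions, with summed intensities of 4170 to 5467 in FSL and 4240.5 to 7309 in FRL in P/FC, and of 5893 to 7086 in FSL and 6474 to 8070 in FRL in HIP. Of the 4 neuronal markers, Syt1 and Stmn2 were called higher in both regions, while Snap25 (-0.050 in P/FC and -0.0054 in HIP) and Rbfox3 (-0.10 and -0.15) were not called. The 4 together summed to 9627 to 11665 in FSL and 8749 to 11804 in FRL in P/FC. Of the 4 microglial markers, Csf1r and Ctss were called lower in FSL P/FC (-0.29 ± 0.05 and -0.28 ± 0.06), with sums of 1474 to 1897 in FSL and 1657 to 2660 in FRL. Aif1 (-0.0094) and Cx3cr1 (-0.10) were not called in P/FC. In HIP only Ctss was called lower. Csf1r (-0.11), Aif1 (-0.035) and Cx3cr1 (0.081) were not called there, and Cx3cr1 ran the other way. Of the 4 endothelial markers, Cldn5 and Tek were called lower in FSL P/FC (-0.28 ± 0.06 and -0.28 ± 0.05), with sums of 664 to 859 in FSL and 708 to 1202 in FRL, and Cldn5 was called lower in HIP. Pecam1 and Flt1 were not called in either region, nor was Tek in HIP. The 4 striatal markers summed to 483 to 3198 in FSL P/FC (median 1679) and to 411 to 3111 in FRL P/FC (median 859). All 4 were higher in FSL P/FC, by 0.53 to 0.82, and Drd1 was called. Their differences ran from 1.04 to 1.34 in cohort 1 and from -0.038 to 0.31 in cohort 2. With their score as a covariate, 18 of the 23 genes were called. The oligodendrocyte markers Mbp, Mog and Mag were not called, with -0.053 to 0.071 in P/FC and -0.040 to -0.011 in HIP. In these bulk samples, fewer cells of a type and less RNA per cell cannot be told apart. The 3′ to 5′ log2 ratio of the Gapdh control probesets, which rises as RNA is degraded, averaged 0.78 in FSL (SD 0.06) and 0.87 in FRL (SD 0.11) in P/FC. In HIP it averaged 0.79 in FSL (SD 0.07) and 0.83 in FRL (SD 0.08). That of Actb averaged 0.66 in FSL (SD 0.08) and 0.76 in FRL (SD 0.10) in HIP. In P/FC the Actb ratio averaged 0.73 in FSL (SD 0.13) and 0.79 in FRL (SD 0.15). When the P/FC fit held the Actb ratio, the same 23 genes were called as without it. The part of cell type in the line differences was not tested.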

How the data were processed

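RNA from 78 samples (39 HIP and 39 P/FC) had been hybridised to Affymetrix rat arrays. The deposited values are intensities of 31099 probesets on a linear scale, which per the study's methods the authors normalised across arrays in Rosetta Resolver. The precision of a difference depends on the number of arrays and on the spread between them. Values under 1 were set to 1 and log2 was taken. A probeset entered a region's test when it exceeded 30 in 50% or more of both the FSL and the FRL arrays, and 57 control probesets did not enter. Groups came from the sample titles, which match the strain labels; the source names of the FSL P/FC samples and the descriptions of the FSL HIP samples name the Sensitive line but carry the abbreviation FRL. In each region limma 3.58.1 (R 4.3.3) was fitted with 1 mean per combination of line and cohort, two-sided, with Benjamini-Hochberg adjustment over all kept probesets. The labelling batch, used in the study's model, is not in the labels and was not fitted. Region tests used all 78 arrays as independent. Symbols came from the platform annotation, promoters from RefSeq.

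The genes named are those called in either region (at most the 12 with the smallest adjusted p), the catalytic subunits, the extremes of each class and region, the brightest and dimmest gene, up to 4 listed ubiquitin genes a region, and genes whose probesets disagree. Psmb8, Psmb9, Psmc2 to Psmc4, Psma4, Psma6, Psma7, Psmd4, Psmd7, Psmd8, Psmd11 and Psmd12 were named with their values seen. So were Uchl5, Pomp, Sem1, Ecpas, Nfe2l1 and Nfe2l2, the marker genes and the further genes of short lists. The genes and lists were chosen with earlier results of these data known. The script was tested on simulated data, where the detection it required was set at a change larger than any called in the proteasome genes. The titles call the replicates biological. Alternatives were other filters, quantile normalisation, 16 added before the logarithm, no variance moderation, the mean of a gene's probesets, the RNA ratios, a tissue marker score, a replicate block and 2 arrays left out.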

Additional observations from a re-analysis of the deposited data

Results flagged for a closer look

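In 234 comparisons of the arrays of a group (8 to 10 arrays, 33 proteasome genes and 6 ubiquitin genes), 19 arrays lay further from their group than Dixon's test allows at its 95% limit, where chance alone gives about 1 in 20 groups. FRL replicate 2 of HIP cohort 2 accounted for 5 of them: it was the lowest for Psmb1 (799, the others 886 to 962), Psmd14 (242, the others 326 to 393), Psmg1 (234, the others 266 to 293) and Skp1 (2103, the others 2407 to 2758), and the highest for Psme3ip1 (205, the others 142 to 171). It also had the highest Actb ratio in HIP, 0.953. In P/FC, the high arrays were FRL replicate 2 of cohort 2 for Psmb2 (666) and FSL replicate 7 of cohort 2 for Psmb3 (794) and Uchl3 (396.5). The low arrays in P/FC were FSL replicate 8 of cohort 1 for Psmc6 (278), FSL replicate 2 of cohort 1 for Psmd3 (292) and FSL replicate 4 of cohort 1 for Psme2 (92.2).

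In HIP, FSL replicate 1 of cohort 1 was the highest for Psmb3 (934) and Psme3ip1 (201), FSL replicate 8 of cohort 2 for Psmb2 (579) and FRL replicate 6 of cohort 2 for Psmc6 (353). The low arrays were FSL replicate 8 of cohort 1 for Psmc1 (550.5), FSL replicate 6 of cohort 2 for Psmd13 (221) and Uchl3 (282), and FSL replicate 5 of cohort 2 for Psmd14 (353).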

How the results depend on the processing

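The count of genes called in P/FC (23) was 22 with a replicate block (without Psma6 and Psmg1, with Psmd1) and 18 to 25 under the other alternatives, except the Gapdh ratio as a covariate, with 6. In HIP (9 called) it was 7 with the block (without Psma1, Psmb7 and Psmg1, with Psmb10), 11 with a filter of 100 or no variance moderation, 10 after quantile normalisation, 7 with the mean of all probesets, 9 with the tissue marker score or 16 added, 5 with no filter, 4 with the Gapdh ratio, 1 with the Actb ratio, and 6 without FRL replicate 2 of cohort 2. After subtracting each group's mean, same-numbered FSL and FRL arrays correlated between -0.14 and 0.37 in P/FC (median 0.15). In HIP they correlated between -0.16 and 0.42 (median 0.088). Within their group, 7 of 39 HIP arrays correlated best with the P/FC array of their own number. No value for differently numbered FSL and FRL arrays was set beside these, so they do not decide whether the numbers pair the samples. The count passing in each cohort was 8 with the Gapdh ratio and 12 with the tissue marker score in P/FC (main 19), and 1 with the Actb ratio in HIP (main 5). The core minus cap median in P/FC was 0.025 with the Gapdh ratio, against 0.11. The tissue marker score and the settings without an array were chosen after seeing the data, and the cause of these changes was not tested.

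Averaging all probesets of a gene, Psmb5, Psmc6 and Psmd9 were no longer called in P/FC, nor were Psmd6 and Psmd14 in HIP. These averages also took in probesets that did not pass the filter, such as a Psmb5 probeset with a mean of 18.8. The sign turned for genes that were mostly not called. With the Gapdh ratio these were, in P/FC, Psmc3ip (-0.0021), Psmd2 (0.0091), Psmd3 (-0.017) and Psme1 (0.026), and in HIP Psme1 (-0.0019). With the Actb ratio they were Psmd2 in P/FC (0.0021) and, in HIP, Psme1 (-0.043), Psme2 (0.0025), Psme3ip1 (0.039) and Psme4 (0.041). With the replicate block they were Psmd2 in P/FC (0.012) and, in HIP, Psmc5 (-0.0084), Psme1 (-0.025) and Psmg3 (-0.00040). With the tissue marker score they were, in P/FC, Psmc5 (0.0014), Psmd2 (0.0092) and Psme2 (-0.025), and in HIP Psme2 (0.00040). With the mean of all probesets they were Ube3c in P/FC (-0.097) and, in HIP, Psmc6 (-0.070), Psmd9 (-0.035), Psme4 (0.0037) and Ube3c (-0.068), the last of which was called in the main analysis. Psmd2 in P/FC was 0.0039 after quantile normalisation and 0.0036 without FRL replicate 7 of cohort 2, and Psme1 in HIP was -0.013 without FRL replicate 2 of cohort 2.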
